A study of Mus musculus with 9 samples.

Results

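The genes of the mitochondrial ribosome were examined in nuclear RNA of left ventricular cardiomyocytes. The members were all genes of the deposited table whose symbol begins with Mrpl (large subunit) or Mrps (small subunit) followed by a digit. There were 76 such genes among 41128, 47 named for the large and 29 for the small subunit. The subunit was taken from the symbol throughout, although the proteins of Mrps18a and Mrps30 belong to the large subunit. In 72 of them (45 large, 27 small) 3 or more of the 9 libraries held a normalized count of 10 or higher. The same minimum left 13454 genes of the whole table, which were tested. A normalized count is the number of reads of a gene divided by a size factor of its library.

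The libraries were made from PCM-1+ nuclei, which an antibody against the perinuclear protein PCM-1 separates from nuclei of other heart cells, at an age of 12 days in mice of strain FVB. The 3 control mice (C1 to C3) are labelled wildtype, whereas the methods of the study describe 1 floxed and 1 wildtype allele of Fstl1. The 3 unstressed cKO mice (U1 to U3) and the 3 stressed cKO mice (S1 to S3, given a stress score of 1 and labelled with volume overload of the left ventricle) had the genotype Fstl1KO/fl;Tie2-Cre. Tie2-Cre is active in the endothelial lineage, endocardium included, so the floxed allele is not removed in cardiomyocytes, while the knockout allele is carried by all cells. The stress score was given from the heart-weight-to-body-weight ratio. According to the study the unstressed cKO mice were male and the controls female, so genotype and sex cannot be told apart in that comparison. The study does not give the sex of the stressed cKO mice sequenced, and the part of sex in the other comparisons was not tested. Whether 1 unstressed cKO mouse (U3), whose title also says het, differed in genotype was not tested, since its other labels equal those of U1 and U2. The titles give a number of its own to each library, which was read as 1 mouse, and without separate animals the p-values would measure technical spread.

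Mitochondria keep their own ribosome, which translates the few proteins encoded in mitochondrial DNA, all of them subunits of the respiratory chain and ATP synthase. Its 2 rRNAs are transcribed in the mitochondrion, but every protein of it is encoded in the nucleus, made in the cytosol and imported. The small subunit binds the mRNA and decodes it, and the large subunit joins the amino acids. The heart depends on oxidative metabolism, and mitochondria multiply and mature in cardiomyocytes after birth. Because nuclei were sequenced, the values reflect nuclear transcripts of these genes and not the amount of ribosome.

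The libraries held 8262684 to 12698502 reads in genes, and 5083 to 8693 of these fell in the 76 genes (491 to 770 reads per 1000000). The 6 cardiomyocyte markers (Tnnt2, Myh6, Actn2, Ryr2, Atp2a2 and Ttn) were at 8144 or above in every library. The 6 endothelial and endocardial markers summed to 710 to 792 in controls, while unstressed cKO mice had 682 to 1024 and stressed cKO mice 906 to 1095, so the first and the last group did not overlap. The 4 leukocyte markers summed to 168 to 320, 177 to 211 and 160 to 171 in the same order. The 5 fibroblast markers summed to 1357 to 2097 over all libraries and the 5 pericyte and smooth muscle markers to 1160 to 6706, with the lowest value in S1. Their part in the results was not tested. U3 and S2 stood apart by mitochondrial rRNA, which took 3.84% and 3.81% of their reads and 0.941 to 1.15% elsewhere.

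Promoters of several members hold motifs of factors known to drive genes for mitochondrial proteins. The RefSeq promoter windows (GRCm38.p6, the same assembly as mm10) run from 250 bases before to 50 bases after a start, and 67 of the 76 symbols matched, with 73 windows. The letters GCGCANGCG, the core of the site of NRF1, stood on either strand in 15 of the 73 windows (20.5%) and in 6.25% of all 32851 windows. CCGGAAG, the core of ETS factors such as GABPA, stood in 25 (34.2%) against 8.86% of all windows, and AAGATGGCG, a site of YY1, in 8 (10.96%) against 1.40%. GGGCGG, the GC box, stood in 39 (53.4%) against 35.7% and TATAAA in 5 (6.85%) against 13.6%. Of the 67 genes 3 (Mrpl2, Mrpl48 and Mrps16) have more than 1 window, and a match of letters is a description and not a bound site. The 32851 windows were not limited to the genes tested here, so these shares cannot show whether the motifs are particular to the members.

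The following sequences of 150 bases directly before the RefSeq start, written 5′ to 3′ on the strand of the gene, were chosen after the values had been seen, as examples of windows with these motifs. Capitals mark the NRF1 and ETS letters on either strand. Mrpl22 carries both, ETS at -53 and NRF1 at -33 from the start. In Mrpl45 the NRF1 letters stand at -120 and -38, in Mrps21 at -90, and the ETS letters at -37 in Mrpl34 and at -48 in Mrps27.
Mrpl22, chr11:58171514-58171663, plus strand: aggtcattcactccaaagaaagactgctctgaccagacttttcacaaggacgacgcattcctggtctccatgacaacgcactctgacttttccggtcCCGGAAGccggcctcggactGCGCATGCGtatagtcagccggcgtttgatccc
Mrpl45, chr11:97315566-97315715, plus strand: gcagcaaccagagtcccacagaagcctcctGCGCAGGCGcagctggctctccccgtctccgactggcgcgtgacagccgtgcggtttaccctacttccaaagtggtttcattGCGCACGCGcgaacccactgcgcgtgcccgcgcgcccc
Mrpl34, chr8:71464776-71464925, plus strand: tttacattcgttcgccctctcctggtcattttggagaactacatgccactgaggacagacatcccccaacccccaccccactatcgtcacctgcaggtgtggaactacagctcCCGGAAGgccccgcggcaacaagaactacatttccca
Mrps21, chr3:95871515-95871664, minus strand: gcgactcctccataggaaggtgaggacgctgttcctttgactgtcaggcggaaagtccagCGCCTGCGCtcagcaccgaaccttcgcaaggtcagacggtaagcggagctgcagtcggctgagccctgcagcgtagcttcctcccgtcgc
Mrps27, chr13:99344636-99344785, plus strand: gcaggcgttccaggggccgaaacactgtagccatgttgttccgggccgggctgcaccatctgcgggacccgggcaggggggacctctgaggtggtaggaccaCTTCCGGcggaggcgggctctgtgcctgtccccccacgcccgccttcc

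A minority of the members had a head-to-head neighbour, a protein-coding gene that starts within 1000 bases upstream on the opposite strand. In GENCODE M21 16 of the 71 members tested that have a position there had one (22.5%), compared with 1200 of 11657 other protein-coding genes tested (10.3%), and within 500 bases the counts were 15 (21.1%) and 1104 (9.47%). Mrps12 starts 172 bases from Sars2, the mitochondrial seryl-tRNA synthetase, and Mrps27 starts 81 bases from Ptcd2, a pentatricopeptide repeat protein of mitochondrial RNA handling. Mrpl49 lies 59 bases from Fau, which encodes a protein of the cytosolic ribosome. Mrps11 and Mrpl46, 1 gene of each subunit, overlap at their starts on chromosome 7 (mm10, 78783119 to 78792989 and 78775236 to 78783531). The 76 genes were spread over 17 chromosomes among those with a position.

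Levels differed widely among the members. The mean normalized count over 9 libraries ranged from 8.96 to 612 among the 72 tested genes, with a median of 48.9, compared with 85.9 for the other 13382 genes tested. Per kb of exon, the median of the 71 members with a known length was 19.3, compared with 23.7 for 11657 other protein-coding genes, and the members were shorter (median exonic length 2533 against 4815 bases). Exonic length counts every base in an exon of any annotated transcript of a gene, so it can exceed the length of its mRNA, and levels per kb depend on the annotation. The median per kb was 19.3 in both subunits. The 4 highest members together took 26.1% of the summed level. The plot of all members by library shows the range of levels and the overlap of the groups.

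**Figure D1:**
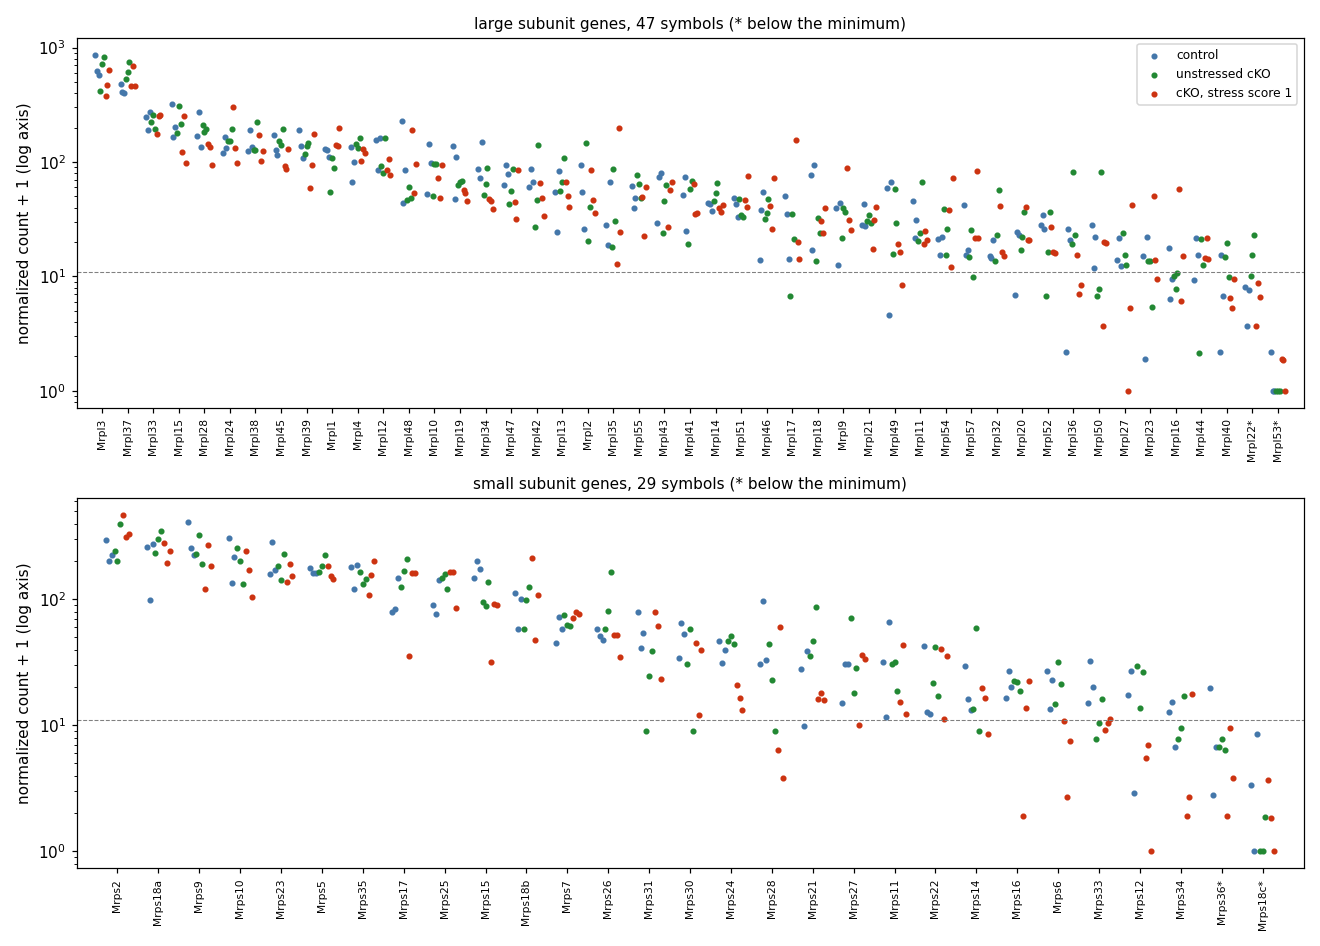
Normalized count + 1 on a log axis for each of the 47 large subunit genes (top) and 29 small subunit genes (bottom), ordered by mean level, with 1 point per library coloured by group. The dashed line marks a normalized count of 10. Levels run from 612 (Mrpl3) to 0.326 (Mrpl53) on average, and the 3 groups overlap for most genes.

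In the large subunit the highest level by normalized count was that of Mrpl3, a homologue of bacterial L3 that is mutated in a human cardiomyopathy. It was at 867, 619 and 579.7 in the controls, 417, 719 and 823 in the unstressed cKO mice, whereas the stressed cKO mice had 375, 468 and 641. The groups overlapped. Mrpl37 followed with 479.7, 408 and 400.1, then 526, 609.7 and 744, then 465, 687 and 459 in the same order of libraries. Here each unstressed cKO mouse was above each control. Per kb of exon the first places went to Mrpl28 (123), Mrpl37 (119), Mrps23 (117) and Mrpl34 (116), whereas Mrpl3, with an exonic length of 6661 bases, stood at 91.9. Mrpl33 (mean 229.6) and Mrpl15 (mean 207) were the next highest by normalized count, and the lowest of the tested large subunit genes were Mrpl40 (8.96) and Mrpl44 (13.7).

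Among genes with a small subunit symbol Mrps2, a homologue of bacterial S2, was highest with a mean of 295 normalized counts. Mrps18a (248), Mrps9 (245) and Mrps10 (195) followed. The lowest tested members were Mrps34 (9.19) and Mrps12 (13.6). The 3 Mrps18 genes are paralogs, of which Mrps18a encodes a protein of the large subunit. Their levels per kb were 67.1 for Mrps18a, 48.8 for Mrps18b and 1.49 for Mrps18c. Mrps18c did not pass the minimum, with 0 to 8 reads in a library.

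Mrpl30, which has no symbol in the table, and Mrpl58, listed as Ict1, lie outside the 76 genes. The 4 genes below the minimum were Mrpl22, Mrpl53, Mrps18c and Mrps36. Mrpl22 was at 2.69 to 22.2 and Mrps36 at 0.902 to 18.9. Mrpl53 ranged from 0 to 1.18 and had 1 read in each of C1, S1 and S2 and none in the other libraries. Of the 76 genes 49 were at 10 or above in every library. Where the reads were counted without strand, reads of overlapping genes cannot be told apart, and the sources used here do not say whether strand was used. Exons of 27 members overlap an antisense gene and those of 7 overlap another gene on the same strand, among them Mrps24 (Urgcp), Mrps6 (Slc5a3) and Mrps34 (Nme3).

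Several members have known roles beyond the structure of the ribosome. Mrpl12 binds the mitochondrial RNA polymerase, and with Mrpl10 it forms the stalk of the large subunit. Mrpl12 had means of 133 ± 43.3, 110.3 ± 44.0 and 88.3 ± 14.5 (SD, n = 3) in control, unstressed cKO and stressed cKO mice, and Mrpl10 had 97.2 ± 44.9, 80.0 ± 26.8 and 70.9 ± 22.9. Mrpl11, at the factor-binding site, had 32.0 ± 12.2, 36.0 ± 25.7 and 20.5 ± 3.04. For each of these 3 genes all groups overlapped.
Mrpl44, of which human mutations cause cardiomyopathy, had 14.4 ± 6.18, 11.03 ± 9.64 and 15.7 ± 4.16, and Mrps22, also linked to human cardiomyopathy, had 21.5 ± 17.2, 25.8 ± 13.2 and 28.2 ± 15.7. Mrps14 had 18.7 ± 8.53, 26.1 ± 27.6 and 13.9 ± 5.86. The spread between mice was as large as the differences. Among other members Mrps5, whose protein lies near the mRNA entrance, varied least, with 166 ± 9.61, 190.4 ± 30.6 and 160.1 ± 19.5. Mrps7, a homologue of bacterial S7, had 57.5 ± 14.0, 65.5 ± 7.54 and 74.7 ± 3.85, and Mrpl4, a homologue of bacterial L4, had 99.6 ± 34.0, 146 ± 15.4 and 117 ± 13.7. Mrpl2, a core protein of the large subunit, had 57.3 ± 34.4, 68.2 ± 68.1 and 54.6 ± 25.9, while Mrps11, a homologue of bacterial S11, had 35.4 ± 27.2, 26.0 ± 7.17 and 22.8 ± 17.3.

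The within-group SD of log2(normalized count + 1) had a median of 0.73 over the 72 tested members, from 0.17 (Mrps5) to 1.60 (Mrpl27), compared with 0.61 over the other genes tested. Among genes in the middle of the members' range of levels it was 0.75 for 36 members and 0.70 for the other genes. The large and the small subunit had 0.74 and 0.71. The median standard error of a log2 fold change over the 72 members was 0.61.

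The sums over each subunit show the libraries side by side. The 47 large subunit genes summed to 4635, 3757 and 3957 in the controls, 3400.05, 4281 and 4878 in the unstressed cKO mice, whereas the stressed cKO mice had 3763, 3722 and 3699.7. The 29 small subunit genes summed to 2752, 2208 and 2533, then 2401, 2569.9 and 2835, then 2369.9, 2341 and 2141. For both subunits the groups overlapped. Large subunit genes took 58.6 to 63.3% of the sum in every library. The ratio of large to small subunit reads was 1.65 ± 0.0759, 1.60 ± 0.163 and 1.64 ± 0.0803 (SD, n = 3). Since nuclei were pooled in each library, a smaller share of nuclei with a transcript and fewer transcripts per nucleus cannot be told apart.

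**Figure D2:**
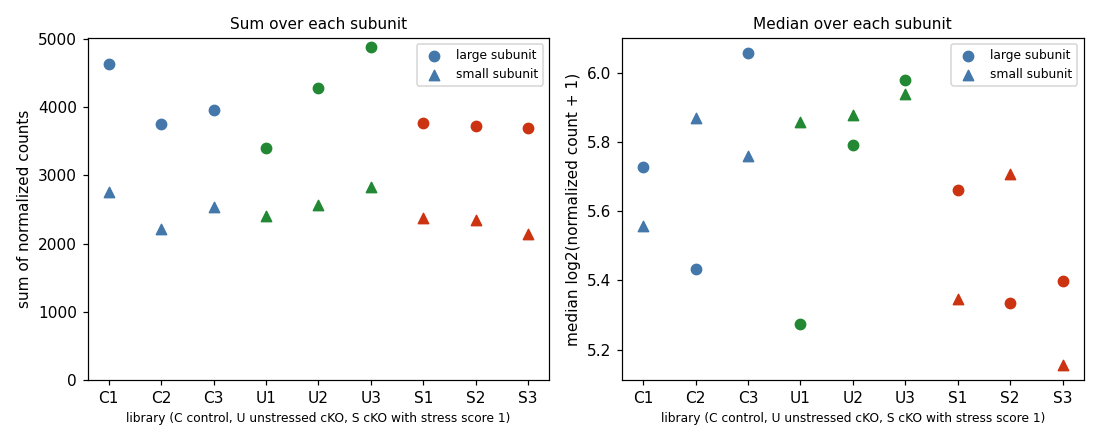
Left, sum of normalized counts over all 47 large (circles) and 29 small (triangles) subunit genes in each library. Right, median log2(normalized count + 1) over the 45 large and 27 small subunit genes tested. Points are single libraries coloured by group, and the small subunit median is lowest in S3 (5.16) and S1 (5.35).

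Unstressed cKO mice were first compared with controls, both without cardiac stress. These groups differ in genotype and, according to the study, in sex, so the effects of genotype and sex cannot be told apart. No member passed an adjusted p of 0.05 with limma, and none passed with DESeq2 or edgeR on the recovered reads. Over all genes limma called 0% and edgeR 0%, and DESeq2 called 0.0733%. At an unadjusted limma p under 0.05, 0 members were higher and 1 was lower, where 2.43% of all genes were higher and 1.74% lower. At an unadjusted DESeq2 p under 0.05, 1 member was higher and 4 were lower, where 3.58% of all genes were higher and 2.85% lower. Of the 72 tested members 34 had a lower fitted level (47.2%), close to the 49% of all genes. The median log2 fold change was -0.04 for the large and 0.06 for the small subunit, compared with 0.01 for all genes.

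The smallest p was that of Mrps31. It was at 79.2, 40.4 and 53.2 in the controls and 7.99, 23.8 and 38.2 in the unstressed cKO mice. All 3 unstressed cKO mice were below the controls, with a log2 fold change of -1.45 ± 0.68 (SE; limma adjusted p = 0.9995), and in the stressed cKO mice it was at 78.5, 60.7 and 22.5. The next lower members were Mrpl18 (-1.18 ± 0.71), Mrps15 (-0.72 ± 0.45) and Mrpl1 (-0.61 ± 0.39). The 4 higher members with the smallest p were Mrpl37 (0.53 ± 0.26), Mrps21 (1.24 ± 0.70), Mrpl36 (1.64 ± 0.99) and Mrps26 (0.82 ± 0.51), and no value of these 8 passed the adjusted threshold with limma. The libraries of the 2 groups did not overlap for 3 members that were higher and 3 that were lower, or 4.17% each, where 5.19% and 5.36% of all genes were so.

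**Figure D3:**
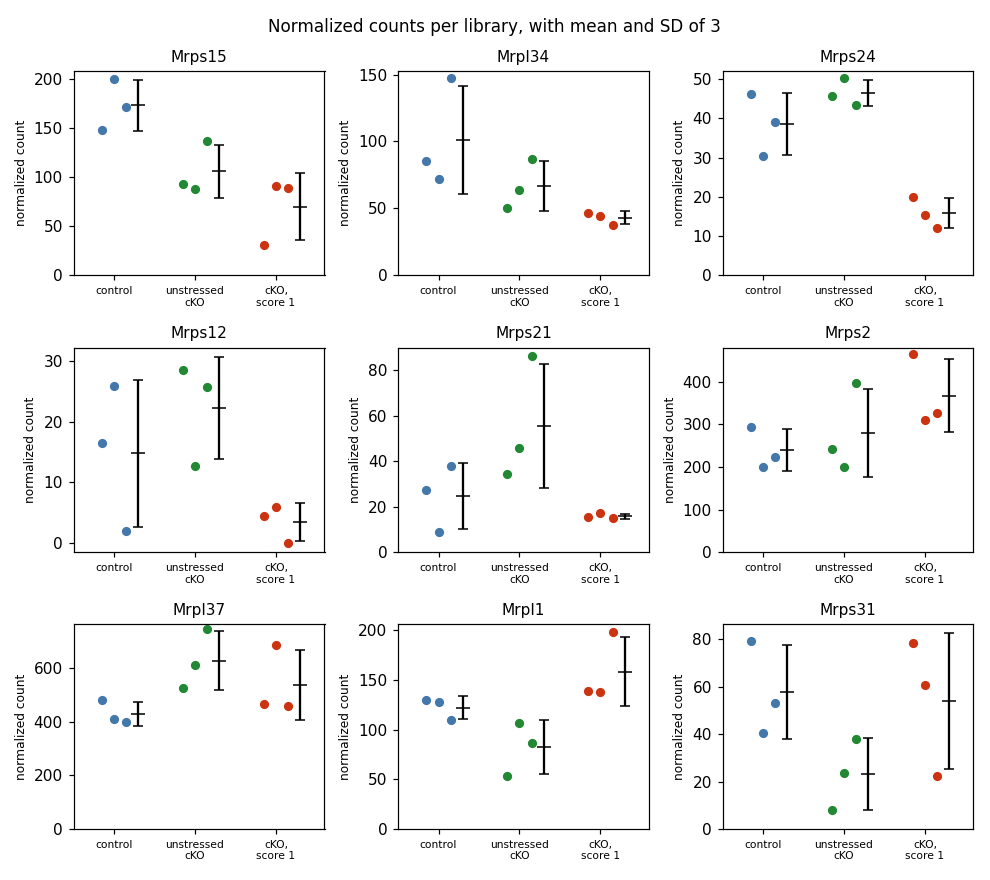
Normalized count of 9 members in each library, by group, with the mean and SD of 3 libraries beside the points. Mrps15 lies at 148 to 200.1 in the controls and at 30.7 to 90.6 in the stressed cKO mice, and Mrps24 lies at 12.2 to 19.8 in the latter.

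Next, stressed cKO mice were compared with controls. These groups differ in genotype as well as in cardiac stress, so genotype and stress cannot be told apart in this comparison. Again no member passed an adjusted p of 0.05 with limma, DESeq2 or edgeR. Over all genes limma called 0%, edgeR 0% and DESeq2 0.366%. DESeq2 gave an adjusted p to 67 of the 72 tested members, and its share is over the 11744 genes with an adjusted p. At an unadjusted limma p under 0.05, 0 members were higher and 3 lower, where 4.38% of all genes were higher and 3.29% lower. DESeq2 gave 0 and 2 members, where 5% and 2.96% of all genes were so. The fitted level was lower in 21 of 27 small subunit genes (77.8%) and in 25 of 45 large subunit genes (55.6%), where 50.7% of all genes were lower. The median log2 fold change was -0.35 in the small and -0.08 in the large subunit, and -0.01 over all genes. These shares and medians describe the members that passed the minimum, and the difference between the subunits was not tested. With Mrps18a and Mrps30 counted in the large subunit, 20 of 25 small (80.0%) and 26 of 47 large subunit genes (55.3%) were lower. With a minimum of 50 in 3 libraries the small subunit median was -0.09. Of all 76 symbols 49 were lower (64.5%). In the same comparison the 6 endothelial and endocardial markers had higher and the 6 cardiomyocyte markers lower fitted levels, none past the adjusted threshold of limma, and the part of these differences in the members' values was not tested.

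**Figure D4:**
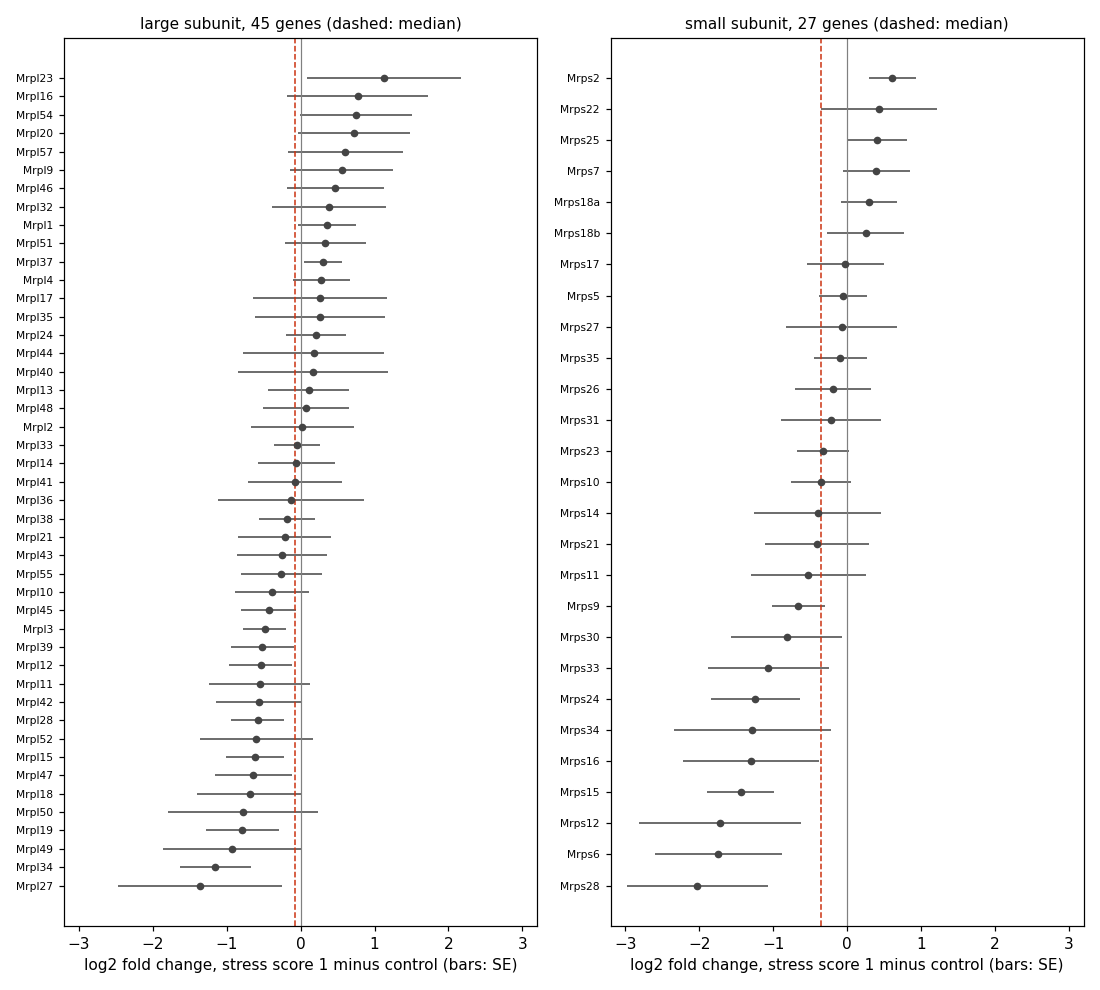
Log2 fold change of stressed cKO mice minus controls for the 45 large (left) and 27 small (right) subunit genes tested, on the log2(normalized count + 1) scale, with bars for the standard error and a dashed line at the median (-0.08 and -0.35). Fitted values run from -2.02 to 1.13, and no gene passed the adjusted threshold.

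Mrps15, whose protein is a homologue of bacterial S15 at the platform of the small subunit, had the smallest p. It was at 148, 200.1 and 172 in the controls, 93.6, 87.6 and 137 in the unstressed cKO mice, whereas the stressed cKO mice had 30.7, 90.6 and 89.0. The controls lay above all 6 cKO mice, and both groups of cKO mice overlapped. The log2 fold change of stressed cKO against control was -1.44 ± 0.45 (SE; limma adjusted p = 0.474; DESeq2 adjusted p = 0.274).
Mrpl34, a homologue of bacterial L34, was at 85.1, 71.8 and 147 in the controls, 50.2, 63.8 and 87.0 in the unstressed cKO mice, whereas the stressed cKO mice had 46.9, 44.4 and 37.5. The last group was below all 6 other libraries. Its log2 fold change against control was -1.16 ± 0.48 (limma adjusted p = 0.610). Mrps24 was at 46.1, 30.5 and 39.0, then 45.7, 50.2 and 43.5, then 19.8, 15.4 and 12.2, again with the last 3 below all others, and its log2 fold change was -1.24 ± 0.60 (limma adjusted p = 0.654). Mrps28 had -2.02 ± 0.96, with 29.5, 96.0 and 32.3 in the controls and 5.41, 59.0 and 2.81 in the stressed cKO mice. Its groups overlapped.

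Of the members with a higher fitted level Mrps2 had the smallest p. It was at 294, 200.1 and 223 in the controls, 243, 199 and 397 in the unstressed cKO mice, whereas the stressed cKO mice had 466, 310.3 and 327. The stressed cKO mice lay above the controls, with a log2 fold change of 0.61 ± 0.32 (limma adjusted p = 0.694), but overlapped with the unstressed cKO mice. Mrpl37 had 0.30 ± 0.26, Mrpl23 1.13 ± 1.05 and Mrps25 0.41 ± 0.40. The 2 groups did not overlap for 2 members that were higher and 5 that were lower, or 2.78% and 6.94%, where 5.8% and 5.28% of all genes were so. These were Mrpl1 and Mrps2, and Mrpl34, Mrps15, Mrps24, Mrps33 and Mrps6, of which Mrps33 was named after its values were seen. No stressed cKO library of Mrps6 reached the minimum of 10.

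Both groups of cKO mice, which share the genotype, were then compared with each other. No member passed an adjusted p of 0.05 with limma, DESeq2 or edgeR, and over all genes limma called 0%, edgeR 0% and DESeq2 0.26%. At an unadjusted limma p under 0.05, 1 member was higher and 4 were lower in stressed cKO mice, where 3.08% of all genes were higher and 3.26% lower. DESeq2 gave 2 and 5 members, where 4.07% and 3.29% of all genes were so. The fitted level was lower in 20 of 27 small subunit genes (74.1%) and 26 of 45 large subunit genes (57.8%), where 51.2% of all genes were lower, and the medians were -0.38 and -0.23. Without U3 and S2, the libraries with the most mitochondrial rRNA, the medians were -0.57 and 0.16. With Mrps18a and Mrps30 counted in the large subunit, 19 of 25 small (76.0%) and 27 of 47 large subunit genes (57.4%) were lower. In the same comparison 3 of 4 leukocyte markers (median log2 fold change -0.53) and 4 of 5 pericyte and smooth muscle markers had lower fitted levels, and 5 of 6 endothelial and endocardial markers higher ones. The summed leukocyte markers did not overlap, with 177 to 211 in unstressed and 160 to 171 in stressed cKO mice. The part of these markers and of the mitochondrial rRNA in the result was not tested. As both comparisons use the same stressed cKO libraries, their values are not independent.

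The 4 lower members with an unadjusted limma p under 0.05 were all of the small subunit. With DESeq2 the 5 lower members at that threshold were 4 of the small and 1 of the large subunit. Over all genes 3.26% were lower with limma and 3.29% with DESeq2. For Mrps24, whose values are given above, the log2 fold change was -1.52 ± 0.60 (limma adjusted p = 0.750). Mrps12, a homologue of bacterial S12 at the decoding centre, was at 28.5, 12.8 and 25.7 in the unstressed cKO mice, whereas the stressed cKO mice had 4.51, 5.98 and 0. These last values were 5, 7 and 0 reads. The controls ranged from 1.90 to 26.0 and overlapped with both, and the log2 fold change was -2.71 ± 1.09 (limma adjusted p = 0.750).
Mrps21 was at 34.2, 45.9 and 86.1 in the unstressed cKO mice, whereas the stressed ones had 15.3, 17.1 and 14.99, with controls at 8.97 to 38.0. Its log2 fold change was -1.64 ± 0.70 (limma adjusted p = 0.765). Mrps6, a homologue of bacterial S6, was at 13.7, 30.6 and 20.4, then 9.92, 1.71 and 6.56, with a log2 fold change of -1.82 ± 0.86 (limma adjusted p = 0.779). In each of these genes the 2 groups of cKO mice did not overlap. The stressed values of Mrps6 were 11, 2 and 7 reads. For Mrps12 and Mrps6 no stressed cKO library reached a normalized count of 10, so both passed the minimum through the other groups alone.

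Mrpl1, a protein of the flexible L1 stalk, was the higher member with an unadjusted limma p under 0.05. It was at 130.0, 127 and 109 in the controls, 53.6, 107 and 87.0 in the unstressed cKO mice, whereas the stressed cKO mice had 139, 138 and 199. The 3 groups did not overlap, with the unstressed cKO mice lowest. The log2 fold change between the groups of cKO mice was 0.97 ± 0.39 (limma adjusted p = 0.752). Mrps31 (1.24 ± 0.68), Mrpl48 (0.95 ± 0.58) and Mrpl57 (1.13 ± 0.78) followed. The libraries did not overlap for 1 member that was higher and 13 that were lower (1.39% and 18.1%), 8 of the latter of the large and 5 of the small subunit, where 5.31% and 6.04% of all genes were so. Mrpl45, whose promoter is shown above, was among the latter, with 152, 139 and 192 in the unstressed and 91.1, 85.5 and 129 in the stressed cKO mice, and was picked after its values were seen. Of the 13 lower members Mrpl40, Mrps12 and Mrps6 had no stressed cKO library at 10 or above, so they passed the minimum through the other groups alone.

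Other genes of mitochondrial translation were read from lists chosen with earlier results known. limma called no gene of any list in any of the 3 comparisons, and DESeq2 called Myc in both comparisons of stressed cKO mice. The values below are those of stressed cKO against control mice. Among 6 mitoribosomal proteins that the table gives another symbol, 1 had a higher and 5 a lower fitted level. Dap3, a GTP-binding protein of the small subunit, had a log2 fold change of -0.42 ± 0.32 and Chchd1 -1.60 ± 1.22, while Gadd45gip1 had 0.26 ± 0.80. Of 26 tested genes for ribosome assembly and rRNA modification 6 were higher and 20 lower, at a median of -0.26. Mettl17, an assembly factor of the small subunit, had -0.94 ± 0.40, Ngrn -1.41 ± 0.83, Trub2 0.45 ± 0.48 and the RNA helicase Dhx30 0.21 ± 0.23.

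Among 15 translation factors and genes of mRNA handling 5 were higher and 10 lower. Mtif2, the initiation factor, had a log2 fold change of -0.58 ± 0.25, the formyltransferase Mtfmt -2.04 ± 0.88, the release factor homologue Mtrf1 1.70 ± 0.62 and the elongation factor Gfm1 0.36 ± 0.29. Of 20 mitochondrial aminoacyl-tRNA synthetases and related genes 7 were higher and 13 lower. Ears2, which charges the tRNA for glutamate, was at 284, 272 and 322 in the controls and 133, 150.4 and 151 in the stressed cKO mice, while the unstressed cKO mice had 249.95, 165 and 144 (-1.01 ± 0.32; limma adjusted p = 0.474). Gatb had -1.04 ± 0.36, Vars2 0.68 ± 0.35 and Cars2 0.66 ± 0.56.

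Among 12 regulators of mitochondrial biogenesis 6 were higher and 6 lower. Myc, a growth factor-induced transcription factor, was at 109, 180.3 and 149 in the controls, 148, 83.3 and 153 in the unstressed cKO mice, whereas the stressed cKO mice had 609, 377 and 532. The last group lay above all other libraries, with a log2 fold change of 1.79 ± 0.35 (limma adjusted p = 0.199; DESeq2 adjusted p = 0.000478). Esrra had 0.26 ± 0.26, Ppargc1a -0.83 ± 0.39 and Tfam, which packages mitochondrial DNA, -1.23 ± 0.60. The mitochondrial rRNAs were higher by 0.92 ± 0.43 (mt-Rnr1) and 0.62 ± 0.38 (mt-Rnr2), neither past the adjusted threshold, and S2 held the highest value of its group in both. Of 13 mitochondrial mRNAs 7 were tested, 4 higher and 3 lower. mt-Nd5 had 0.64 ± 0.50, mt-Co1 0.50 ± 0.50, mt-Nd2 -0.66 ± 0.77 and mt-Cytb -0.20 ± 0.58.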

How the data were processed

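Reads from Ovation RNA-seq V2 libraries were mapped to mm10 with STAR, per the paper and the submitters' processing notes. The deposited values are a signal, normalized counts from DESeq2, which the authors made by dividing reads per gene by a size factor of the library. How reads were assigned to genes, and whether by strand, was not stated. Dividing each nonzero value by what 1 read is worth gave whole reads for 100% of them (tolerance 0.001), and these recovered reads served the count tests.

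Values were set to log2(normalized count + 1), so that fold changes of low genes are understated. The 13454 genes with at least 10 in 3 libraries were tested with limma 3.58.1 (R 4.3.3) with a trend, all 9 libraries in 3 groups (6 residual degrees of freedom), two-sided, with Benjamini-Hochberg adjustment over all genes tested. DESeq2 1.42.0 and edgeR 4.0.16 with TMM were run on recovered reads as alternatives, beside other pseudocounts, minimums, scalings, a number series covariate and left-out libraries. The shares of genes called by DESeq2 are over the genes to which it gave an adjusted p. The number series splits the mice by their number in the titles, with C2, C3 and S3 in one series and the other mice in another. It is unbalanced over the groups, and the labels do not call it a batch. limma replaced the study's DESeq2 as the main test because the values are normalized. The scripts were tested on simulated data. Positions and exonic lengths came from GENCODE M21 and promoters from RefSeq.

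Members and lists were chosen with earlier results of these data known, and the distances for neighbouring genes and the sequences shown were chosen after values had been seen. Genes named are the 4 highest and 2 lowest of each subunit, for each comparison the 4 higher and 4 lower members ranked first by p, members with a known role, those below the minimum, and in each list the 2 higher and 2 lower genes ranked first by p in stressed cKO against control mice. Fold changes of list genes under the alternatives were added after seeing the data.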

Additional observations from a re-analysis of the deposited data

How the results depend on the processing

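No member was called in any of the 3 comparisons by the main test or under any alternative run, with leave-one-out counts of 0 to 0. The main test called no gene of the table in any comparison either, so this cannot show that the members were unchanged. No paired analysis was possible because the labels give no replicate numbers that pair the mice. For stressed cKO against control mice the median log2 fold change of the small subunit was -0.0892 with a minimum of 50 in 3 libraries and -0.559 with the number series as a covariate, and leaving out 1 library at a time gave -0.495 to -0.233, and -0.236 to -0.0197 for the large subunit. Between the groups of cKO mice, leaving out U3 and S2 gave medians of 0.159 for the large and -0.567 for the small subunit, and leaving out 1 library gave -0.364 to 0.0112 and -0.575 to -0.177 (-0.575 without U3, -0.567 without S2, -0.177 without S3). For unstressed cKO against control mice the ranges were -0.164 to 0.174 and 0.0238 to 0.212. The causes were not tested. With Mrps18a and Mrps30 moved to the large subunit, an alternative added after seeing the data, no median changed sign, and the small subunit median between the groups of cKO mice was -0.410. Of 114 alternative medians 8 changed sign, 5 of them the large subunit median of unstressed cKO against control mice, which was near 0. None of the 24 fold changes of members in the report changed sign. These were picked for the smallest p in each direction, a choice that itself favours a stable sign. Over all named members and comparisons 130 of 2004 alternatives changed sign. Among the list genes Gadd45gip1 changed sign to -0.1052 without C2 and -0.1982 without S3, mt-Co1 to -0.0014 without S2 (alone or with U3), mt-Nd2 to 0.0754 without S1, and mt-Cytb to 0.0470 with DESeq2, 0.0363 with edgeR, 0.2518 without C2 and 0.6308 without S3. Leaving out 1 library gave -0.1982 to 0.7990 for Gadd45gip1, -0.0014 to 0.8288 for mt-Co1, -1.4546 to 0.0754 for mt-Nd2 and -0.7887 to 0.6308 for mt-Cytb. Of the 76 members 40 had a mean normalized count under 50, and what depth limits was not tested.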
